A study of Sus scrofa with 3 samples.

Results

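AMBN, AMELX and ENAM encode ameloblastin, amelogenin and enamelin, the 3 structural proteins of forming enamel, and their transcripts were followed in the tooth germs of miniature pig embryos. Every probe set whose gene symbol in the platform annotation held one of these names (AMELX also as AMEL) was taken, which gave 3 of 6912 gene symbols and 4 of 23999 probe sets. AMBN and ENAM had 1 probe set each. AMELX had 2, of which 1 was annotated to AMELX alone and the other to both AMELX and AMELY.

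The study followed the last deciduous molar of the lower jaw and the dental lamina of its successor in Wuzhishan miniature pigs, with no treatment and no genetic change in any group. Germs with their lamina were taken from embryos of 1 litter at each stage and pooled, and 1 Affymetrix Porcine Genome Array was run for each pool. By the labels, the E40 germ was at the cap stage with no secondary lamina, the E50 germ was at the bell stage with the secondary lamina starting, and the E60 germ was at the secretory stage with a secondary lamina. The methods of the study call the E60 germ late bell. A stage has 1 array and therefore no replicate error, no p-value can be computed, and the differences are between pools and not between stages in general.

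Ameloblasts are the epithelial cells that lay down enamel. They face the odontoblasts, the mesenchymal cells that make dentin, across a basement membrane that is lost before enamel is secreted. Amelogenin makes up most of the secreted matrix, ameloblastin contributes to cell adhesion and crystal growth, and enamelin is the scarcest and largest of these proteins and is needed for the mineral ribbons to lengthen. In many mammals the amelogenin gene lies on sex chromosomes. Ameloblastin and enamelin lie side by side in a cluster of secretory calcium-binding phosphoprotein genes, the SCPP genes.

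AMBN was also the member that the study measured by real-time PCR, and the primers chosen for that assay are shown. The study spells their row ABMN, which was read as AMBN. For the genes measured by PCR, on the RNA used for the arrays, it reports levels that correlated with the array signals. The study also stained ameloblastin protein by immunocytochemistry and reports changes similar to those on the arrays. In the forward primer the capitals mark the 5 bases at each end that are complementary to each other. The reverse primer has no such end.
AMBN forward: CGGATcaatttaccagggacATCCG
AMBN reverse: ccacctgctgctgaaccatt
The forward primer has 25 bases and the reverse primer 20. They were not matched to the array's probes here.

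The values are MAS 5.0 signals, which have no unit and are scaled so that the trimmed mean of each array is the same (500.1). Array medians on E40, E50 and E60 were 163.5, 125.0 and 132.0. The 25th percentile of each array served as a floor, at 29.3, 17.2 and 21.8 on the same days. Signals under it were raised to it before folds were taken, and the words "at least" mark the folds that this turns into lower bounds. No fold is given where both signals were under the floor or where raising one put it past the other. Calls of higher or lower needed a difference of over 2-fold. Signals of different probe sets depend on their probes, so levels and ranks are compared only for the same probe set across arrays.

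All 3 genes were high on E60, but they did not come up together: AMBN and AMELX had risen by E50, while for ENAM no fold can be given between E50 and E40 and the called rise lay between E60 and E50. From E40 to E60 the rise was over 100-fold for all 4 probe sets. In a bulk pool, a change in the number of ameloblasts and a change in RNA per ameloblast cannot be told apart.

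**Figure D1:**
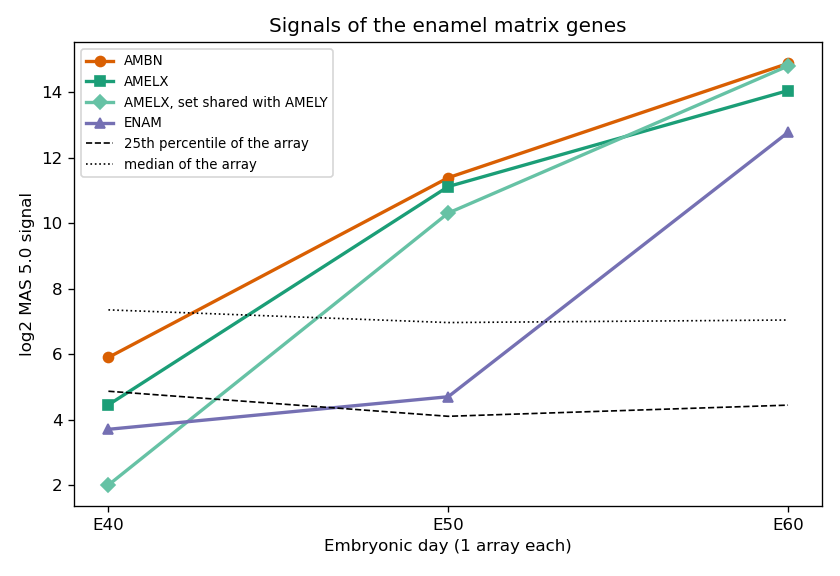
Log2 MAS 5.0 signal (vertical axis) of the 4 probe sets on the E40, E50 and E60 arrays, 1 array each, with the 25th percentile (dashed) and the median (dotted) of each array. AMBN and both AMELX probe sets lie above the array median from E50 on, and ENAM only on E60.

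Ameloblastin was the only member with a signal above the floor on E40. AMBN signals on E40, E50 and E60 were 59.8, 2675 and 29942, or 5.90, 11.39 and 14.87 on the log2 scale. It lay under the median of the E40 array and above the median of the other arrays. On E50 the AMBN signal was 44.7-fold that on E40 (log2 5.48), with both signals above the floor. On E60 it was another 11.2-fold higher than on E50 (log2 3.48) and 500.5-fold higher than on E40 (log2 8.97). By E50, 61.1% of the log2 rise had taken place, although the E50 signal was still only 8.93% of the E60 signal.

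Amelogenin was under the floor on E40 by both of its probe sets. The probe set annotated to AMELX alone gave signals of 22.0, 2218 and 16881 on E40, E50 and E60 (log2 4.46, 11.12 and 14.04). Its E50 signal was at least 75.8-fold higher than on E40. On E60 the signal was 7.61-fold that on E50 (log2 2.93) and at least 576.8-fold that on E40. Of the log2 rise from the floor, 68.1% had taken place by E50.

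The probe set shared by AMELX and AMELY, the Y-linked copy of the amelogenin gene, gave 4.03, 1267 and 28375 on E40, E50 and E60 (log2 2.01, 10.31 and 14.79). It showed the same order of stages. Its E50 signal was at least 43.3-fold that on E40, its E60 signal 22.4-fold that on E50 (log2 4.49), and its E60 signal at least 969.5-fold that on E40. The labels do not give the sex of the pooled embryos, and the share of AMELY in this signal was not tested.

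Enamelin came last. ENAM signals on E40, E50 and E60 were 13.1, 26.1 and 6972 (log2 3.71, 4.70 and 12.77). On E40 it was under the floor, on E50 it was above the floor of its own array but under the floor of the E40 array, and only on E60 was it above the array median. The E50 and E40 signals allow no fold, because the raised E40 signal passes the E50 signal. Without the floor the E50 signal was 1.99-fold that on E40. On E60 the ENAM signal was 267.5-fold that on E50 (log2 8.06), and with the floor no other probe set rose over 100-fold between these arrays. It was at least 238.2-fold higher than on E40 (log2 7.90). The E50 signal was 0.374% of the E60 signal.

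Between E50 and E40, 3 of the 4 member probe sets were higher by over 2-fold, against 2.6% of the 18379 probe sets with a fold. Between E60 and E50 all 4 were higher, against 6.37% of 18593. Between E60 and E40 all 4 were higher, against 4.51% of 18625. The step of over 2-fold upwards was taken at both intervals by 3 of the 4 (AMBN and both AMELX probe sets), while 0.239% of 17595 probe sets did so, or 42 in number. The median log2 difference over all probe sets with a fold was -0.11 for the first of these pairs, 0.02 for the next and -0.11 for the last.

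Large differences, bounds included, were few. On E50 versus E40, 12 probe sets were over 10-fold higher and 3 of them belonged to AMBN and AMELX. On E60 versus E50, 18 were over 10-fold higher and 3 of them were members, the probe set of AMELX alone not being among these. On E60 versus E40, 6 probe sets were over 100-fold higher: the 4 member probe sets and 1 probe set each of DSPP, the precursor of the main non-collagenous dentin proteins, and MMP20, enamelysin, the protease that cleaves the enamel proteins during secretion.

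Each probe set was also ranked on its own array. Of 23999 probe sets, AMBN ranked 15573, 1347 and 2 on E40, E50 and E60. Both AMELX probe sets and ENAM were under the floor on E40, where ranks have no order. On E60 the AMELX probe set ranked 101, against 1729 on E50, and the shared probe set ranked 5 on E60, against 3231 on E50. ENAM ranked 361 on E60, against 16667 on E50.

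**Figure D2:**
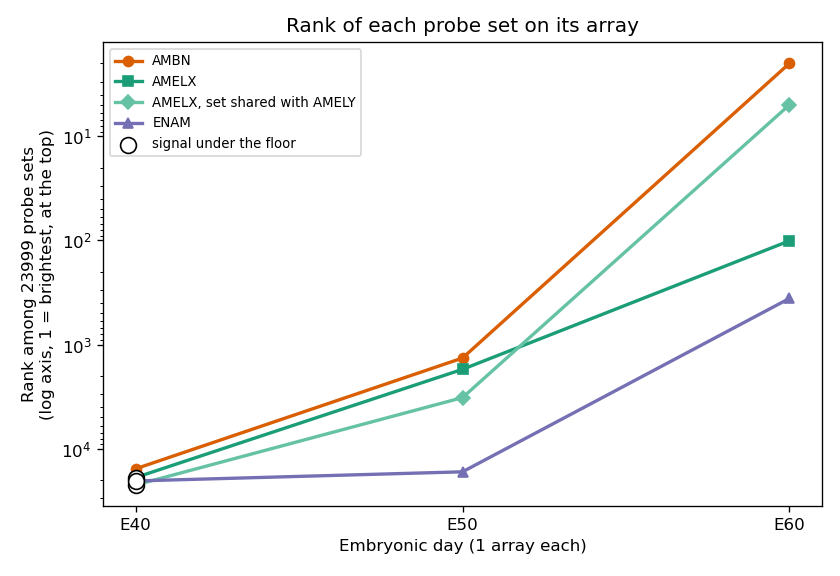
Rank of each member probe set among the 23999 probe sets of its array (vertical log axis, rank 1 at the top) on E40, E50 and E60, with white circles on signals under the floor, whose ranks have no order. AMBN reached rank 2 and the shared AMELX probe set rank 5 on E60, while ENAM reached 361 on E60, against 16667 on E50.

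ENAM stood apart from the other members. On E60 versus E50 the log2 fold of AMBN minus that of ENAM was -4.58, and that of AMELX minus that of ENAM was -5.14. AMBN and AMELX differed by 0.56 on this pair. The 2 AMELX probe sets differed by 1.56, the shared one being higher. For scale, the 2 brightest probe sets of a gene differed by an SD of 0.56 on the same pair over 1622 genes, with a 95th percentile of 1.12 in absolute size. Among the 32 of these genes whose mean changed over 2-fold, the 95th percentile was 1.88. The ENAM gap lies above both percentiles, the AMELX gap lies between them, and the AMBN-AMELX gap is no larger than the SD. This scale holds probe differences as well as noise and is not a replicate error. On E60 the highest signal of the array was 1.35-fold that of AMBN and 2.40-fold that of AMELX, against 5.82-fold that of ENAM. Whether the upper range of the array limits the steps of AMBN and AMELX was not tested.

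**Figure D3:**
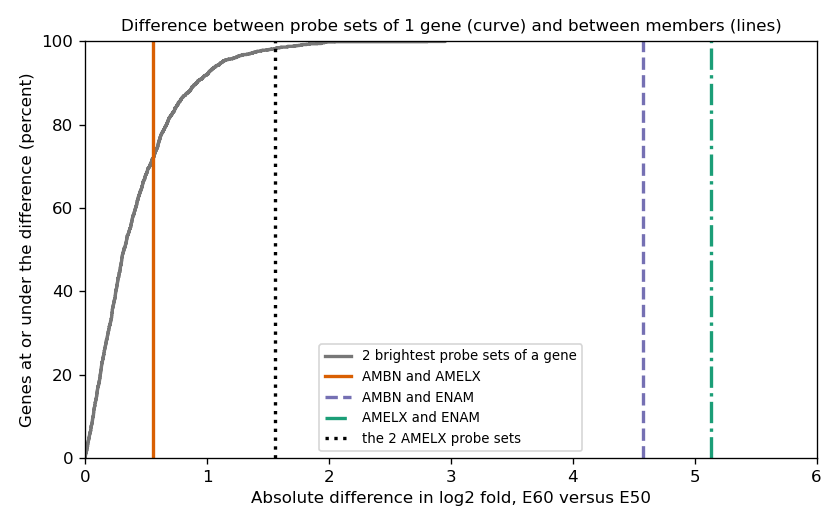
Percent of 1622 genes (vertical axis) whose 2 brightest probe sets differ by no more than the absolute difference in log2 fold on the horizontal axis, E60 versus E50, as a curve. Lines mark the members: 0.56 between AMBN and AMELX, 1.56 between the 2 AMELX probe sets, and, farthest right, ENAM with AMBN (-4.58 before the sign is dropped) and with AMELX (-5.14).

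On E50 versus E40, the log2 fold of AMBN minus that of AMELX was -0.76 with the floor and -1.18 without it. For the probe sets of a gene, the 95th percentile was 1.49 in absolute size. It was 3.36 among the 103 genes whose mean changed over 2-fold. That scale used measured folds only, while the AMELX fold is a lower bound. For the AMELX pair of probe sets no order of the rises against E40 can be given, because both E40 signals were under the floor: on E50 versus E40 the shared set minus the other gave -0.81 with the floor and 1.64 without it.

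The genes with steps nearest to those of each member were then found, by the distance between the pair of log2 differences (E50 minus E40 and E60 minus E50, with the floor) over 3 arrays. AMBN and AMELX were each other's nearest gene, at a distance of 0.94. CKMT1A, a mitochondrial creatine kinase, followed at 1.86 from AMBN and 2.07 from AMELX, with signals of 42.0, 898.6 and 3476 on E40, E50 and E60. GNRH1, the precursor of gonadotropin-releasing hormone, lay at 2.61 from AMBN and 2.48 from AMELX, with 19.6 (under the floor), 750.7 and 1506 on those days.

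BAMBI, a decoy receptor of TGF-beta signalling, was at 3.30 from AMBN. Its signals were 132.5, 938.7 and 2701 on E40, E50 and E60, and its other probe set climbed too, with 719.9, 3921 and 8817 on these days. A2M, the protease inhibitor alpha-2-macroglobulin, was at 3.46 with 60.3, 249.0 and 2097 on E40, E50 and E60, but the other A2M probe sets did not show this (31.4, 31.0 and 19.0 for one, 13.5, 7.52 and 32.0 for the other). Next to AMELX came also SCIN, the actin-severing scinderin, at 3.53 and SATB1, a chromatin organiser, at 3.69. SCIN gave 47.8, 1806 and 1317 on E40, E50 and E60, and its other probe set 19.8, 436.5 and 269.3, so neither was higher on E60 than on E50. The SATB1 probe set gave 31.8, 325.1 and 506.3.

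ENAM had other neighbours. The nearest was DSPP at 1.81, with 1.72, 29.8 and 2289 on E40, E50 and E60 by that probe set, and the other DSPP probe sets gave 3.60, 80.3 and 4195, and 18.1, 17.9 and 592 on the same days. ACP4, an acid phosphatase listed on the platform under its older symbol ACPT and mutated in human enamel disease, lay at 2.81 with 29.0, 15.8 and 688.1 on E40, E50 and E60. MMP20 lay at 4.03 with 53.0, 212.6 and 5407. PRR15 at 4.69 and GPX3, a secreted glutathione peroxidase, at 4.88 completed the group with 300.5 and 286.1 on E60, against 29.0 and 31.3 on E50. The first steps of ENAM and of DSPP rest on the floor of the E40 array, and that of ACP4 on the floors of both arrays, so these distances depend on the floors.

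Few probe sets came this near to a member. Of 19634 other probe sets above the floor on at least 1 array, 4 lay within a distance of 3 of AMBN, 4 of AMELX and 3 of ENAM, and none of these was without a gene symbol. Of the 4 near AMBN and the 4 near AMELX, 2 each were member probe sets, and the others were CKMT1A and GNRH1.

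**Figure D4:**
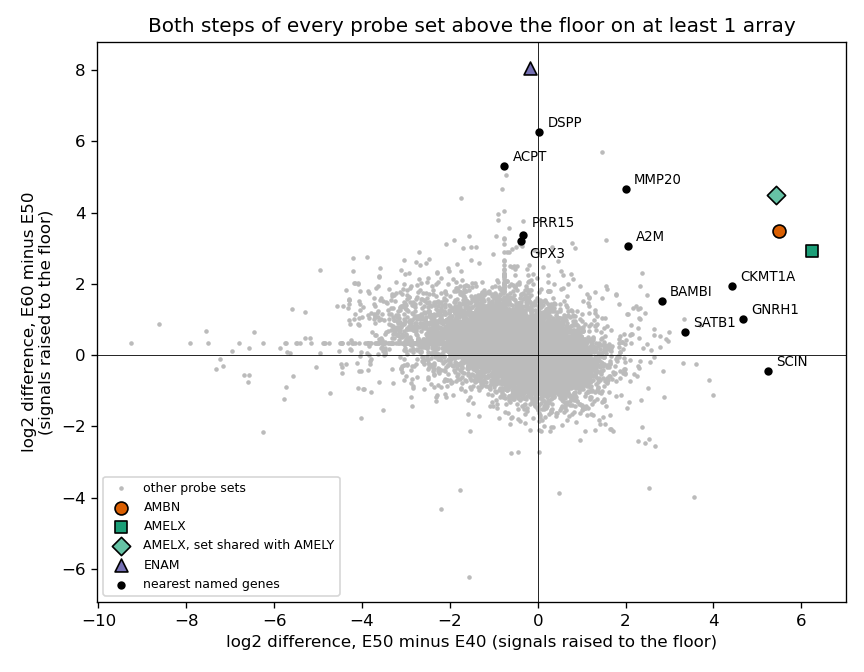
Log2 difference E50 minus E40 (horizontal axis) against E60 minus E50 (vertical axis), with the floor, for every probe set above the floor on at least 1 array (grey), the members (coloured) and the named nearest genes (black). AMBN and both AMELX probe sets lie at the far right with a second step of 2.93 to 4.49, and ENAM lies at the top with a second step of 8.06.

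The other genes of enamel formation were described from a list of 22 genes, of which 6 had a probe set with 1 symbol. On E60 versus E50, 4 of the 5 with a fold were higher and 0 lower, with a median log2 fold of 1.95 against 0.02 over all probe sets. Of all probe sets with a fold, 6.37% were higher on this pair. MMP20 was 25.4-fold higher on E60 than on E50 (log2 4.67), ACP4 at least 39.9-fold, COL17A1, a collagen of epithelial attachment, at least 3.85-fold, and TUFT1, tuftelin, 2.09-fold. On E60 versus E40, 2 of 6 with a fold were higher (MMP20 and ACP4) and 1 lower (KLK4), where 4.51% of all probe sets were higher. COL17A1 and TUFT1 had no call on that pair, at 1.21-fold and 1.28-fold. On E50 versus E40 only MMP20 was higher, by 4.01-fold, and KLK4 and COL17A1 were lower, where 15.6% of all probe sets with a fold were lower and 1.88% were on E60 versus E50. KLK4, the protease of the later maturation stage, was chosen after its values were seen: its signals were 75.1, 10.4 and 6.98 on E40, E50 and E60, under the floor from E50 on.

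The SCPP relatives, dentin and bone matrix proteins and caseins among them, were 14 genes, 10 with a probe set. On E60 versus E50, 6.37% of all probe sets with a fold were higher. Of the relatives, 3 of 6 with a fold were higher and 0 lower, with a median log2 of 0.98. These were DSPP at 52.2-fold, DMP1, a dentin and bone matrix protein, at least 2.88-fold by 1 of its probe sets, and IBSP, bone sialoprotein, at 7.43-fold. The other DMP1 probe set was under the floor on every array. IBSP did not follow the enamel genes before that, with 617.4 on E50 against 4047 on E40 and 4585 on E60. On E60 versus E40 only DSPP was higher, 1 of 7 with a fold, and 0 were lower, where 4.51% of all probe sets were higher. DMP1 was at least 1.69-fold higher on that pair, which was not called. The casein genes CSN1S1, CSN1S2 and CSN3 were under the floor on every array, and CSN2 was above it on E40 alone (33.6). They are named for their place in the cluster, after their values were seen.

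Of 22 genes listed for ameloblasts or early tooth epithelium, most of them transcription factors, 8 had a probe set. SATB1 alone was higher on E50 versus E40 (1 of 6 with a fold, 3 lower) and alone on E60 versus E50 (1 of 6, 0 lower). Of all probe sets with a fold, 2.6% were higher and 15.6% lower on the first pair, and 6.37% and 1.88% on the next. The brightest SATB1 probe set gave 392.8, 1983 and 4020 on E40, E50 and E60, 10.2-fold higher on E60 than on E40. The dimmest of its 4 probe sets, at 23.9, 16.7 and 35.5, was above the floor on E60 alone. On E50 versus E40, MSX1, a homeobox factor of dental mesenchyme, was 2.12-fold lower, and CEBPD and CEBPA, basic leucine zipper factors, were 3.76-fold and at least 2.38-fold lower. CEBPA is a known activator of the amelogenin promoter in mouse, and its signals on the 3 days were 41.0, 6.86 (under the floor) and 21.9. The floor was 29.3 on E40 and 21.8 on E60, so these CEBPA signals lay near it as well.

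**Figure D5:**
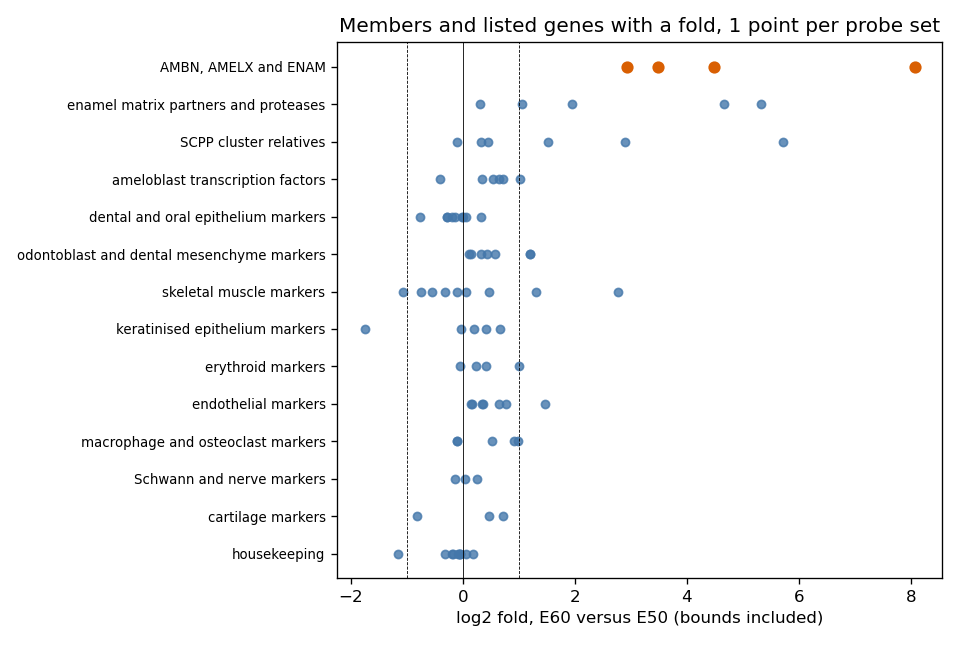
Log2 fold on E60 versus E50 (horizontal axis) of the 4 member probe sets (top row) and of every listed gene with a fold (1 point for each, bounds included), by list, with dashed lines at 2-fold. The members lie between 2.93 and 8.06, and MMP20, ACP4 and DSPP lie at 4.67, at least 5.32 and 5.71.

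The makeup of the pools was read from marker lists, each member of which was measured on the same arrays. Of 15 general epithelial markers 9 had a probe set, while KRT5, KRT14, KRT15, KRT17, PKP1 and TP63 had none. All 9 were above the floor at each stage, and their summed signals on the 3 days were 44567, 46839 and 43581. Of the 9, 1 (KRT18) was higher at the first step and 0 at the second, where 2.6% and 6.37% of all probe sets with a fold were. The sum holds moves in both directions: on E50 versus E40, EPCAM was 1.94-fold higher and DSP, the desmoplakin gene, 1.93-fold lower, neither called. The markers of odontoblasts and dental mesenchyme had 2 of 7 higher (COL1A2 and COL3A1) and 0 lower on E60 versus E50. On E50 versus E40, ALPL, the alkaline phosphatase of mineralising tissue, was higher (log2 2.14), and COL1A2 and TNC were 2.29-fold and 2.90-fold lower. COL1A2 gave 472.7 on E60 against 470.4 on E40. Housekeeping genes had a median log2 difference of 0.04 at the first step and -0.08 at the second. Of 7 tooth germ markers 2 had a probe set, MSX1 and LEF1, both above the floor on every array.

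Other tissue moved with the first step. All 13 skeletal muscle genes with a probe set fell between these arrays, E50 against E40 (median log2 -6.25), their summed signal being 919.9 on E50 against 42522 on E40, and 3626 on E60. MYL1 alone gave 3266 of the sum on E60, and the other 12 genes together gave 360.1 on E60 against 438.7 on E50. Of the keratinised epithelium genes, 4 of 5 with a fold were lower on E50 than on E40, with a summed signal of 3729 on E50 against 15059 on E40. Their part in the rises of AMBN and AMELX was not tested. On E60 versus E50, 2 of 9 muscle genes with a fold were higher and 1 lower, where 6.37% and 1.88% of all probe sets were. The part of the muscle genes in the rise of ENAM was not tested. On E50 versus E40, 15.6% of all probe sets were lower. So were 2 of 7 endothelial, 1 of 3 cartilage and 1 of 2 nerve genes with a fold, and 1 of 2 nerve genes was higher. Of 3 erythroid and 5 macrophage and osteoclast genes, 0 were lower.

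In the pig assembly Sscrofa11.1, used only for gene order, AMTN, AMBN, ENAM and JCHAIN follow each other, and AMELX lies within the span of ARHGAP6. Of the 10 genes nearest to AMBN and ENAM, 5 on each side, 5 had a probe set and 1 was higher on E60 versus E50. On that pair 6.37% of all probe sets with a fold were higher. The 1 gene was JCHAIN, the joining chain of immunoglobulins, named after its values were seen, with 76.9, 67.3 and 210.2 on E40, E50 and E60. Of 10 genes beside AMELX, 4 had a probe set and 0 were called in any pair.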

How the data were processed

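The RNA of 3 pools of tooth germs (E40, E50 and E60, 1 array each) was analysed from the deposited table. The authors computed MAS 5.0 signals, a tool named in the submitters' processing notes, scaled each array and deposited the values as log2. The table holds 24123 probe sets. The 124 array controls were left out here. Detection calls were not used here, and a genome build is not given in the sources used here. Symbols came from the platform annotation: 10069 probe sets with 1 symbol, 198 with several and 13732 with none.

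Folds were ratios of signals raised to the 25th percentile of their own array and called past 2-fold. Named were the members with all their probe sets, the 5 genes with the nearest steps to each member, and of each gene list at most 4 of the genes past 2-fold, the brightest. A listed gene stood by its brightest probe set with 1 symbol. The members and lists were chosen with earlier results of these data known. The fold calls were tested on simulated data in which only bright probe sets were changed, so calls that rest on low signals were not tested. Python 3.11.15, pandas 2.3.3, numpy 2.4.6 and matplotlib 3.10.9 were used. The alternatives, each run alone, were a floor at the 50th percentile, none at all, a common floor, equal medians, quantile normalization, scaling to the housekeeping genes, a 3-fold threshold, probe sets with 1 symbol, and the mean of the AMELX probe sets. Values were taken as kept within 1.5-fold, and shares within 10 percentage points.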

Additional observations from a re-analysis of the deposited data

How the results depend on the processing

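No direction of a called fold turned under any alternative, and 88 of 104 recomputed values were kept, the other 16 having moved. With the floor at the 50th percentile, the log2 folds on E50 versus E40 were 4.03 for AMBN and 3.76 for AMELX. With that floor the log2 fold of ENAM on E60 versus E50 was 5.80, and the folds on E60 versus E40 were 7.52 for AMBN, 6.69 for AMELX and 5.41 for ENAM. The share of the AMELX log2 rise reached by E50 was then 56.2%. With no floor, ENAM had a log2 fold of 0.99 for E50 over E40 and 9.06 for E60 over E40. The share of its rise reached by E50 was then 10.98%. With the floor the share was -2.12%, but it rests on the E50 and E40 signals that allow no fold. It therefore shows no fall. The log2 difference of that step, -0.17, was also the reference for taking the ENAM values on E50 versus E40 as kept or moved. After quantile normalization the ENAM value on E50 versus E40 was 0.57. With AMELX as the mean of its probe sets, its log2 fold on E60 versus E50 was 3.71. With AMELX by the probe set shared with AMELY, an alternative chosen after seeing the data, its log2 folds for E50 over E40, E60 over E50 and E60 over E40 were 5.44, 4.49 and 9.92, and its share was 54.8%. The cause of these shifts was not tested beyond the construction of each alternative. Scaling to equal medians moved the median of all probe sets on E50 versus E40 to 0.24, against -0.15 as deposited.

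The members past 2-fold numbered 2 to 3 for E50 over E40, and 3 to 4 for each of the other pairs, the lower numbers coming from leaving out the probe set with several symbols. No paired analysis was possible because each stage has 1 array and the stages share fewer than 2 replicate numbers. With 1 array for each stage, no array was left out in turn. Signals under the floor have no order, which limits every fold against E40 for AMELX and ENAM.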

Other observations

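On E60 versus E50, 8 of the 18 probe sets that were over 10-fold higher carried no gene symbol, against 13732 of all 23999 probe sets. The unnamed probe sets with steps nearest to those of ENAM lay at a distance of 3.47, with signals of 37.1, 21.0 and 529.5 on E40, E50 and E60, and at 3.99, with 178.5, 53.0 and 1121 on these days. They were chosen after their values were seen.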
